A study of Mus musculus with 2 samples.

Results

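The 83 mouse genes of the matrix metalloproteases (MMPs), the ADAM and ADAMTS proteases, the ADAMTS-like proteins and the tissue inhibitors of metalloproteases (TIMPs) were described across cell types of the fetal lung. They were taken by name, as all gene features called Adam, Adamts, Adamtsl, Mmp or Timp followed by a number and at most 1 letter. They were 83 of the 32285 gene features measured. The choice was made with earlier results of these data known. There were 22 MMP, 33 ADAM, 19 ADAMTS, 5 ADAMTS-like and 4 TIMP genes. No member was used to define a cell type.

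Nuclei came from lungs of wild-type C57BL/6J fetuses on gestation day 18. The mothers had been sensitised with OVA in alum and given OVA intranasally during gestation (OVA library), or had received alum and PBS in place of OVA (PBS library), so both groups carried alum. RNA and accessible chromatin were read from the same nuclei, in 1 library of 9 pooled fetuses (PBS) and 1 library of 8 pooled fetuses (OVA), each from 1 dam. ILC2s (CD45+ Lin- ST2+), CD45+ immune cells and EpCAM+ epithelial cells had been sorted and mixed. As each group was a lone library, the groups could not be tested against each other, and treatment, dam, litter and library cannot be told apart. All intervals below are exact 95% intervals and cover counting error only, apart from those of medians, which are order-statistic intervals over members.

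MMPs are zinc proteases that cut collagens and other matrix proteins. ADAMs are membrane-bound and shed the outer parts of cytokines, growth factors and receptors. ADAMTS proteases are secreted and process proteoglycans, procollagen and von Willebrand factor, while the ADAMTS-like proteins share their accessory domains and lack the protease domain. TIMPs block these enzymes. In the lung these proteins take part in branching, the shaping of the alveolar wall, airway remodelling and leukocyte traffic.

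The PBS library held 8019 barcodes and 11473351 unique molecular identifiers (UMIs), of which 4572 nuclei were kept, and the OVA library held 5960 barcodes and 13774959 UMIs, of which 5246 nuclei were kept. Mitochondrial UMIs made up 45.2% (PBS) and 29.2% (OVA) of all UMIs, so levels are given per 1000000 nuclear-encoded UMIs of a gate (CPM). The libraries shared 54 cell barcodes, 32 of them among kept nuclei. A gate is a group of nuclei chosen by 8 marker genes of a cell type, and the 9 gates with at least 50 nuclei in each library held 2259 PBS and 3006 OVA nuclei. Each gate's ninth marker was kept out of gating and was raised in 8 of the 9 gates, as with Icos at 1257 CPM (PBS) and 1254 CPM (OVA) in the ILC2-like gate against 5.49 and 3.47 CPM in the others. The monocyte marker Chil3 was at 0 in its gate in both libraries, so that gate is called the Ccr2 Plac8 gate after its markers. The sort named no mesenchymal cells, yet 840 PBS nuclei (37.2% of gated nuclei) and 1245 OVA nuclei (41.4%) fell into the fibroblast-like, myofibroblast-like and pericyte-like gates. RNA of other cell types was present in every gate. In the ILC2-like gate the 9 AT2 markers summed to 919 CPM (PBS) and 450 CPM (OVA), with none at 0, and the 9 mast cell or basophil markers to 1590 and 2112 CPM, with 1 and 2 at 0. Low levels are therefore given as values and not read as expression.

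Many members had few or no UMIs in the 9 gates, and more UMIs fell on the ADAMTS genes than on all other members together. Over the 9 gates 33362 UMIs fell on members, 17401 of them on ADAMTS genes. Of the 83 members, 13 had no UMI, 28 had 1 to 29 and 42 had at least 30. Summed over the family, the fibroblast-like gate was highest at 6285 CPM (PBS) and 7606 CPM (OVA), followed by the myofibroblast-like gate (5750 and 6706) and the pericyte-like gate (5659 and 6334). The AT1-like gate stood at 4745 and 6013 CPM, the AT2-like gate at 2491 and 2754 and the mast cell-like gate at 2476 and 2302. The remaining immune gates were lowest, with 1652 and 1708 CPM in the ILC2-like gate, 1430 and 1724 in the Ccr2 Plac8 gate and 1227 and 1340 in the macrophage-like gate. The order of the gates was the same in both libraries but for the ILC2-like and Ccr2 Plac8 gates, which changed places. These sums are counts that were not corrected for gene length. The make-up of these sums differed. ADAMTS genes gave 4139 and 5446 CPM in the fibroblast-like gate, whereas in the AT1-like gate TIMP genes gave 1750 and 2532 CPM and ADAMTS-like genes 1382 and 1968 CPM. In the ILC2-like gate ADAM genes led with 866 and 1035 CPM.

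**Figure D1:**
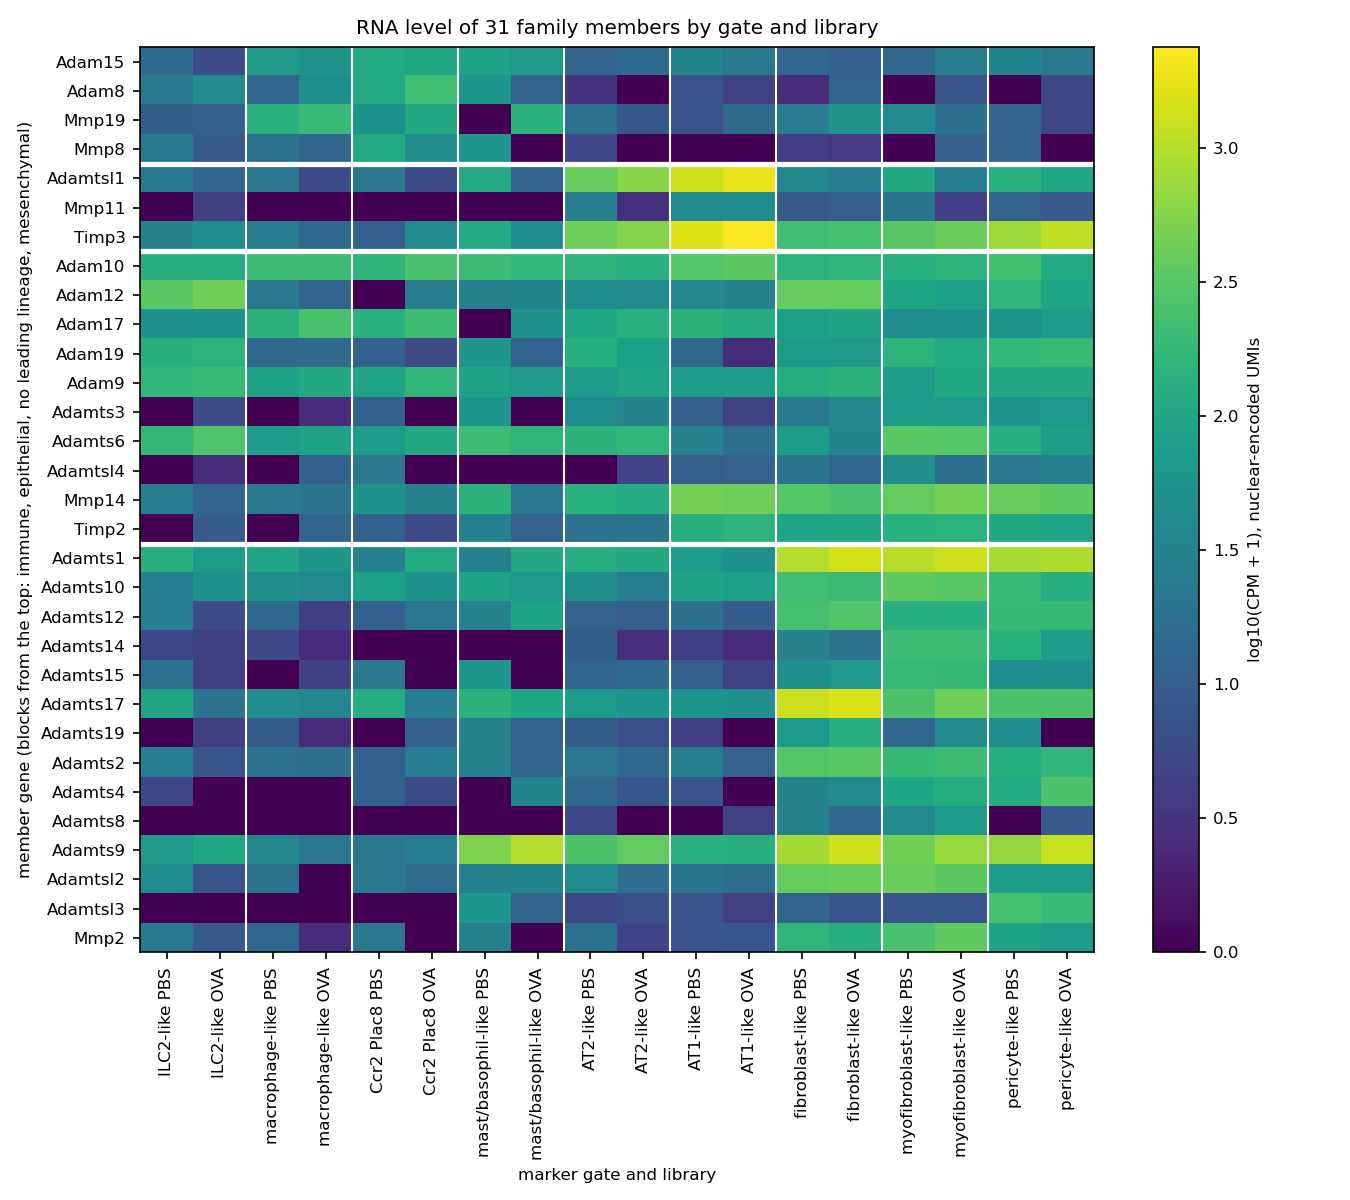
RNA level of the 31 members with at least 20 UMIs in a lineage of each library (rows, in blocks by leading lineage) for each gate and library (columns), as log10(CPM + 1) of nuclear-encoded UMIs. Most ADAMTS members are high across the 3 mesenchymal gates, and Timp3 and Adamtsl1 are highest in the AT1-like gate.

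Members with few or no UMIs were often neighbours in the genome. In all, 37 members lay within 500 kb of another member. On mouse chromosome 9, 9 Mmp genes lay side by side between positions 7272514 and 7699585 (mm10), a stretch that holds collagenases, stromelysins, the macrophage elastase Mmp12 and matrilysin. Together these 9 genes had 80 UMIs in the 9 gates, and 4 of them had none. Mmp8, the neutrophil collagenase, was the only 1 with at least 30 UMIs. It stood at 113 CPM (PBS) and 45.9 CPM (OVA) in the Ccr2 Plac8 gate, from 11 and 9 UMIs, and at 22.2 CPM or lower in the others of the 9 gates but the mast cell-like gate, where 2 PBS UMIs gave 58.3 CPM. It was higher in the neutrophil gate, which was too small to be described (17 PBS and 43 OVA nuclei), at 883 CPM (9 UMIs) and 335 CPM (12 UMIs). Mmp12 had 18 UMIs over the 9 gates.

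Promoters of the chromosome 9 genes shared sequence features that other members mostly lacked. RefSeq promoter windows (GRCm38.p6, 250 bases before to 50 after the start) were matched by symbol for 52 of the 83 members. They were searched on both strands for a TATA box (TATAAA), the site of the factor AP-1 (TGANTCA) and a GC box (GGGCGG). Of the 9 chromosome 9 genes, 7 had TATAAA and TGANTCA in the same window, against 1 of the other 43 members (Adam29) and 1.51% of all 32544 windows. None of the 9 had a GC box, against 27 of the other 43. The sparse Mmp13, an interstitial collagenase with 2 UMIs in the 9 gates, is shown for the paired motifs (chr9:7272264-7272563, plus strand), and Mmp8 for a TATA box alone, here on the reverse strand (chr9:7558179-7558478, plus strand). Both were chosen for display after their values were seen. Motif matches are in capitals.
Mmp13: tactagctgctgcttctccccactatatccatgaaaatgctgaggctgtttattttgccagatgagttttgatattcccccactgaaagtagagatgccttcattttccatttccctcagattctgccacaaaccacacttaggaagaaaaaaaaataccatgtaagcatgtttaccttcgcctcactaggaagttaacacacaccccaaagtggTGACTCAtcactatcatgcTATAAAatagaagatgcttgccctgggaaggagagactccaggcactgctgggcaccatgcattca
Mmp8: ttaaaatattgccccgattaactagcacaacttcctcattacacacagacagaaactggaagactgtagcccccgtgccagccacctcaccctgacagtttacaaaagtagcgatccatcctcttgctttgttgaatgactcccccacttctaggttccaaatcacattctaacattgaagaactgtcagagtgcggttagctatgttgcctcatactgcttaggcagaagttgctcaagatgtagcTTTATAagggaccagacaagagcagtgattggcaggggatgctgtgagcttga

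These matches are letters in a window and were not tested as binding sites. Mmp8 had a peak of accessible chromatin at its start in both libraries, at 7.72 (PBS) and 6.67 (OVA) transposition counts per 1000000 peak counts over the immune gates, 2.32 and 4.05 over the epithelial gates and 3.01 and 5.09 over the mesenchymal gates. Of the 13 members without a UMI, 1 had a peak within 1 kb of its start in both libraries. This was Adamts13, the von Willebrand factor protease. Of the 42 members with at least 30 UMIs, 40 had such a peak.

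The members were next compared between the 3 lineages, formed by summing the immune, epithelial and mesenchymal gates. A lineage was called leading where it was highest in both libraries, with at least 20 UMIs in each, and at least 2-fold above the next with an interval above 1. Of the 31 members with enough UMIs, 21 (67.7%) had a leading lineage, and 30.4% of the 7678 genes that passed the same minimum did so too. For 14 members (45.2%) it was mesenchymal, against 10.5% of all genes. The subfamilies differed in this. Of 13 ADAMTS members 11 were led by the mesenchymal gates, and of 7 ADAM members none was. These levels are relative to all RNA of a lineage and cannot separate more expressing nuclei from more RNA in each.

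Adamts1, a protease of aggrecan and versican, stood at 961, 1035 and 889 CPM in the fibroblast-like, myofibroblast-like and pericyte-like gates of the PBS library, and the OVA values were 1433, 1305 and 928 CPM. Its highest value elsewhere was 129 CPM, in the PBS ILC2-like gate. The mesenchymal gates were 9.65-fold (7.62 to 12.4) above the epithelial gates in the PBS library and 17.2-fold (13.9 to 21.5) in the OVA library. The 3 mesenchymal gates thus stood together, and no other gate reached them. Adamts9, which cuts versican and is needed for the formation of cilia, was at 840 and 1306 CPM in the fibroblast-like gate, 683 and 1230 in the pericyte-like gate and 443 and 708 in the myofibroblast-like gate. It was the exception in the immune gates, with 524 CPM (18 UMIs) and 984 CPM (91 UMIs) in the mast cell-like gate and at most 101 CPM in the other immune gates. The gelatinase Mmp2 was at 165 and 130 CPM in the fibroblast-like gate, 254 and 356 in the myofibroblast-like gate, 86.7 and 71.3 in the pericyte-like gate and at or below 29.1 elsewhere. Adamtsl2, a microfibril-bound protein, reached 379 and 415 CPM in the fibroblast-like and 397 and 333 CPM in the myofibroblast-like gate, but 75.9 and 75.5 CPM in the pericyte-like gate. The remaining mesenchymal members were Adamts2, a procollagen N-proteinase, Adamts4, Adamts8, Adamts10, Adamts12, Adamts14, Adamts15, Adamts17, Adamts19 and Adamtsl3. Their folds over the next lineage ran from 3.78 (Adamts10) to 12.03 (Adamts17) in the PBS library, and the OVA folds from 3.89 (Adamts10) to 25.6 (Adamts19).

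Within the mesenchyme the members were not alike. A gate was called leading by the rule used for lineages, applied to the 9 gates. Of 22 members with enough UMIs 4 had a leading gate (18.2%), close to the 15.2% of the 3862 genes that could be judged. Adamts17, whose human counterpart is mutated in a Weill-Marchesani-like syndrome, was at 1259 CPM (801 UMIs) in the PBS and at 1551 CPM (2778 UMIs) in the OVA fibroblast-like gate, 4.65-fold (3.12 to 7.22) and 3.65-fold (3.06 to 4.39) above the next gate. Adamtsl3 was highest in the pericyte-like gate, at 249 CPM (23 UMIs) and 189 CPM (45 UMIs), and did not pass 11 CPM in any other gate but the mast cell-like gate, where 2 UMIs and 1 UMI gave 58.3 and 10.8 CPM. Its fold over that gate was 4.28 (1.06 to 37.5) in the PBS and 17.5 (2.98 to 705) in the OVA library. The call of Adamts17 held under all 10 alternative settings, and that of Adamtsl3 under 7. Adamts14 was low in the fibroblast-like gate (28.3 and 19.0 CPM) and higher in the myofibroblast-like (208 and 208) and pericyte-like (141 and 75.5) gates, a pattern named after its values were seen.

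**Figure D2:**
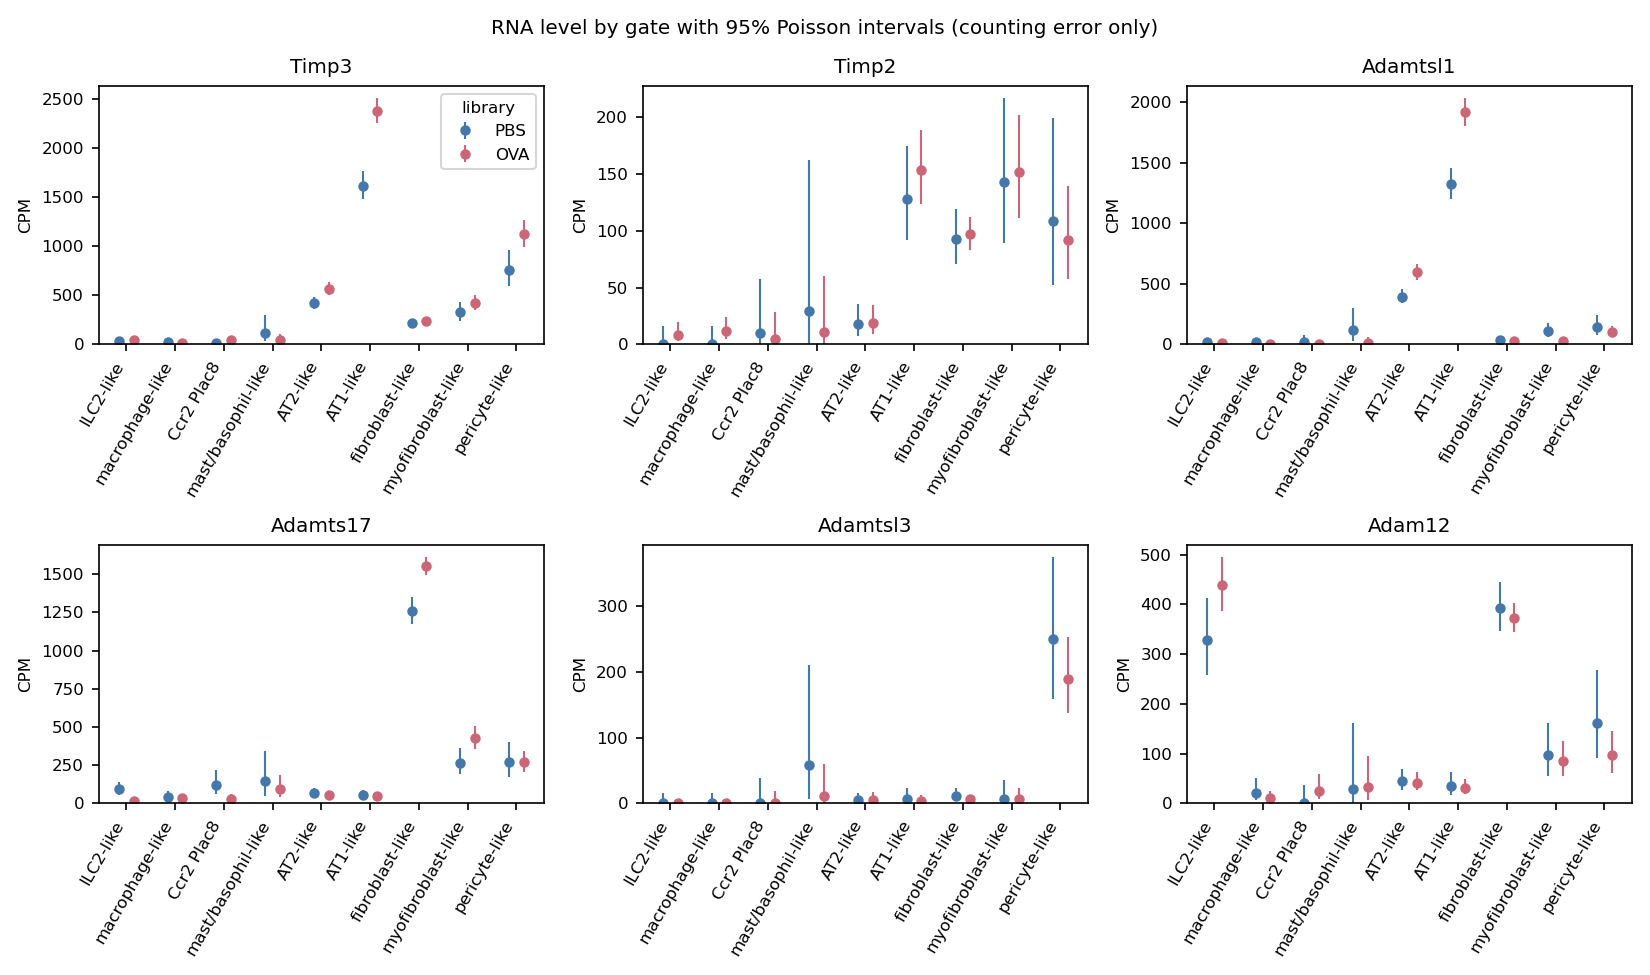
Levels of Timp3, Timp2, Adamtsl1, Adamts17, Adamtsl3 and Adam12 by gate, in CPM of nuclear-encoded UMIs, with a point for each library (PBS and OVA) and bars for the exact 95% counting interval. Adamts17 stands apart in the fibroblast-like gate and Timp3 and Adamtsl1 in the AT1-like gate.

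Timp3, Adamtsl1 and Mmp11 were the members led by the epithelial gates. Timp3, the TIMP that binds to matrix and also blocks ADAM17, was at 1616 CPM (504 UMIs) in the PBS and 2377 CPM (1376 UMIs) in the OVA AT1-like gate. The pericyte-like gate came next with 759 and 1125 CPM, then the AT2-like gate with 421 and 563 CPM, the myofibroblast-like gate with 326 and 418 CPM and the fibroblast-like gate with 215 and 233 CPM. In the ILC2-like gate it was at 31.1 and 43.2 CPM. The AT1-like gate was 2.13-fold (1.66 to 2.78) and 2.11-fold (1.85 to 2.42) above the pericyte-like gate, so the lead sits near the 2-fold limit, and it held under 6 of 10 alternatives. Timp2 reached 128 and 154 CPM in the AT1-like gate and 143 and 152 CPM in the myofibroblast-like gate, and it overlaps Cep295nl on the same strand, so its reads are uncertain. Timp1 had 39 UMIs over the 9 gates, the most of them (4 PBS and 19 OVA) in the fibroblast-like gate. Timp4 had 14 UMIs, with 6 OVA UMIs in the pericyte-like gate and 5 in the myofibroblast-like gate.

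Adamtsl1, also known as punctin, was at 1321 and 1914 CPM in the AT1-like gate, at 394 and 597 CPM in the AT2-like gate and at or below 141 CPM elsewhere. It was 3.35-fold (2.80 to 4.02) and 3.21-fold (2.83 to 3.65) higher in AT1-like than in AT2-like nuclei, a call that held under all 10 alternatives. Adamtsl1 overlaps Sh3gl2 on the same strand, and its reads are therefore uncertain. Mmp11 was the third epithelial member, with 24 PBS and 26 OVA UMIs, and lost its call under 5 of 9 alternatives. Mmp14, the membrane-bound activator of Mmp2, had no leading lineage. It was at 462 and 427 CPM in the AT1-like gate, 365 and 465 in the myofibroblast-like gate, 390 and 344 in the pericyte-like gate and 306 and 258 in the fibroblast-like gate.

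The immune gates led for Adam8, Adam15, Mmp8 and Mmp19. Among the 9 gates Adam8, a leukocyte sheddase, was highest in the Ccr2 Plac8 gate at 113 CPM (11 UMIs) and 219 CPM (43 UMIs). It had 13.0 and 46.5 CPM in the macrophage-like gate and 22.2 and 39.9 CPM in the ILC2-like gate. In the PBS library the mast cell-like gate came next, from 2 UMIs. Adam8 was higher in the small neutrophil gate, at 785 CPM (8 UMIs) and 642 CPM (23 UMIs). Neutrophil markers summed to 257 CPM (PBS) and 230 CPM (OVA) in the Ccr2 Plac8 gate. Their part in its Adam8 and Mmp8 levels was not tested. Mmp19 was highest in the macrophage-like gate at 143 CPM (33 UMIs) and 186 CPM (112 UMIs). The calls of Mmp19 held under 6 and those of Adam15 under 4 of 9 alternatives. Mmp9, the neutrophil and macrophage gelatinase, had 3 UMIs in the 9 gates together and 12 in the neutrophil gate.

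Adam12, a sheddase of growth factors, had similar levels in cells of 2 lineages, the ILC2-like and the fibroblast-like gate. In the ILC2-like gate it stood at 329 CPM (74 UMIs) in the PBS and 439 CPM (264 UMIs) in the OVA library, and in the fibroblast-like gate at 393 and 373 CPM. All other immune gates were at or below 32.4 CPM. The ILC2-like over fibroblast-like ratio was 0.836 (0.636 to 1.09) and 1.18 (1.02 to 1.36). A same-strand gene, A130023I24Rik, overlaps Adam12. Adamts6 was at 178 and 278 CPM in ILC2-like nuclei and at 326 and 310 CPM in myofibroblast-like nuclei, but was not confined to them. In the PBS library the mast cell-like gate came next after the myofibroblast-like gate, from 7 UMIs. Summed by lineage, Adamts6 was at 122.6 (immune), 98.8 (epithelial) and 122.5 CPM (mesenchymal) in the PBS library. The OVA values were 172.9, 86.8 and 72.9 CPM. Adamts6 was lowest in the AT1-like gate (28.9 and 15.6 CPM), so the AT2-like gate lay above these epithelial levels. The main sheddases Adam10 and Adam17 were present in nearly every gate. Adam10, which cuts Notch receptors, ranged from 113 to 332 CPM over the 18 values of 9 gates and 2 libraries. Adam17, which releases TNF and EGFR ligands, was at 147 and 256 CPM in the macrophage-like gate, 144 and 209 in the Ccr2 Plac8 gate and 148 and 118 in the AT1-like gate, and had no PBS UMI in the mast cell-like gate. Adam33, the gene of an asthma susceptibility locus, had 55 UMIs, and reached 19.5 and 46.1 CPM in the myofibroblast-like and 43.4 and 37.8 CPM in the pericyte-like gate.

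RNA was then set beside chromatin at the gene starts. Of the 21 members with a leading lineage, each with a peak at its start in both libraries, 19 (90.5%) had the highest accessibility within 1 kb of the start in that lineage in both libraries, against 65.2% of 2112 genes. Adam15 and Mmp19 did not. Of the 4 members with a leading gate only Adamtsl3 had its highest accessibility in that gate, which is 25% against 31.8% of 512 genes. The start regions of 4 members are shown for the contrast in their chromatin and base composition. Timp3 (chr10:86300162-86300461, plus strand) was open in epithelial (41.5 PBS and 42.1 OVA counts per 1000000) and mesenchymal gates (37.6 and 37.6) and low in immune gates (3.50 and 3.89). Adamts1 (chr16:85803064-85803363, minus strand) was most open in mesenchymal gates (91.0 and 95.5), then in epithelial (37.0 and 24.6) and immune gates (11.7 and 8.43). Adamts12, a secreted protease (chr15:11064523-11064822, plus strand) was open in mesenchymal gates (28.8 and 31.4) and at or below 4.80 in the others. Adamtsl3 (chr7:82335444-82335743, plus strand) reached 26.1 and 14.4 in the pericyte-like gate. Capitals mark GGGCGG and TATAAA on either strand, and the Adamts12 window holds none of the motifs searched.
Timp3: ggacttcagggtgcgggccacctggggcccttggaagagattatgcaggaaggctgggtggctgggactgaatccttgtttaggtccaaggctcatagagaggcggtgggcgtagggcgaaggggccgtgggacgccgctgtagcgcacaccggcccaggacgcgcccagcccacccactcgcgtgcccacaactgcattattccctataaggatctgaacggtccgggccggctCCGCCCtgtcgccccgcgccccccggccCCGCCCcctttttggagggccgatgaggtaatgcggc
Adamts1: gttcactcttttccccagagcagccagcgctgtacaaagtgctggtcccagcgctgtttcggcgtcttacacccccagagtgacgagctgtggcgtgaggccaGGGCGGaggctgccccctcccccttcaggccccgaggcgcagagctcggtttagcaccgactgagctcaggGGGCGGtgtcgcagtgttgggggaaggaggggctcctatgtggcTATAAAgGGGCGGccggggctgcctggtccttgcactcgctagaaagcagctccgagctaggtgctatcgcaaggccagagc
Adamts12: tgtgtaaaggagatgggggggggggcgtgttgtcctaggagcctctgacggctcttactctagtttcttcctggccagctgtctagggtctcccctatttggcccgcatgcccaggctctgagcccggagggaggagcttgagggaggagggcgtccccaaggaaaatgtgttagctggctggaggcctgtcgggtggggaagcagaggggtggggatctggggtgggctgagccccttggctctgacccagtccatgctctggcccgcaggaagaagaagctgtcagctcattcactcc
Adamtsl3: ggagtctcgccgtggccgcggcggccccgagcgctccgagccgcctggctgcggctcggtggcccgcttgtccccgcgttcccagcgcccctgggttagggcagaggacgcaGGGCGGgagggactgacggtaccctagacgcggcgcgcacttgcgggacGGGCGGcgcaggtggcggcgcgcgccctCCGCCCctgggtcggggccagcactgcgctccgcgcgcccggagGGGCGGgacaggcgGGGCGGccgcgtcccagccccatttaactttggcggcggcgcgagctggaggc

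The ratio of observed to expected CpG was 0.71 for the Timp3 window, 0.58 for Adamts1, 0.25 for Adamts12 and 1.00 for Adamtsl3, with a median of 0.39 over all windows. Of all windows 35.9% held a GC box and 13.6% TATAAA. Adamts12 thus had a CpG-poor start that was accessible in the mesenchymal gates, and Adamtsl3 a CpG-rich start with low accessibility in most gates. Adam10 was at 55.2 to 134 counts per 1000000 in every gate and library.

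**Figure D3:**
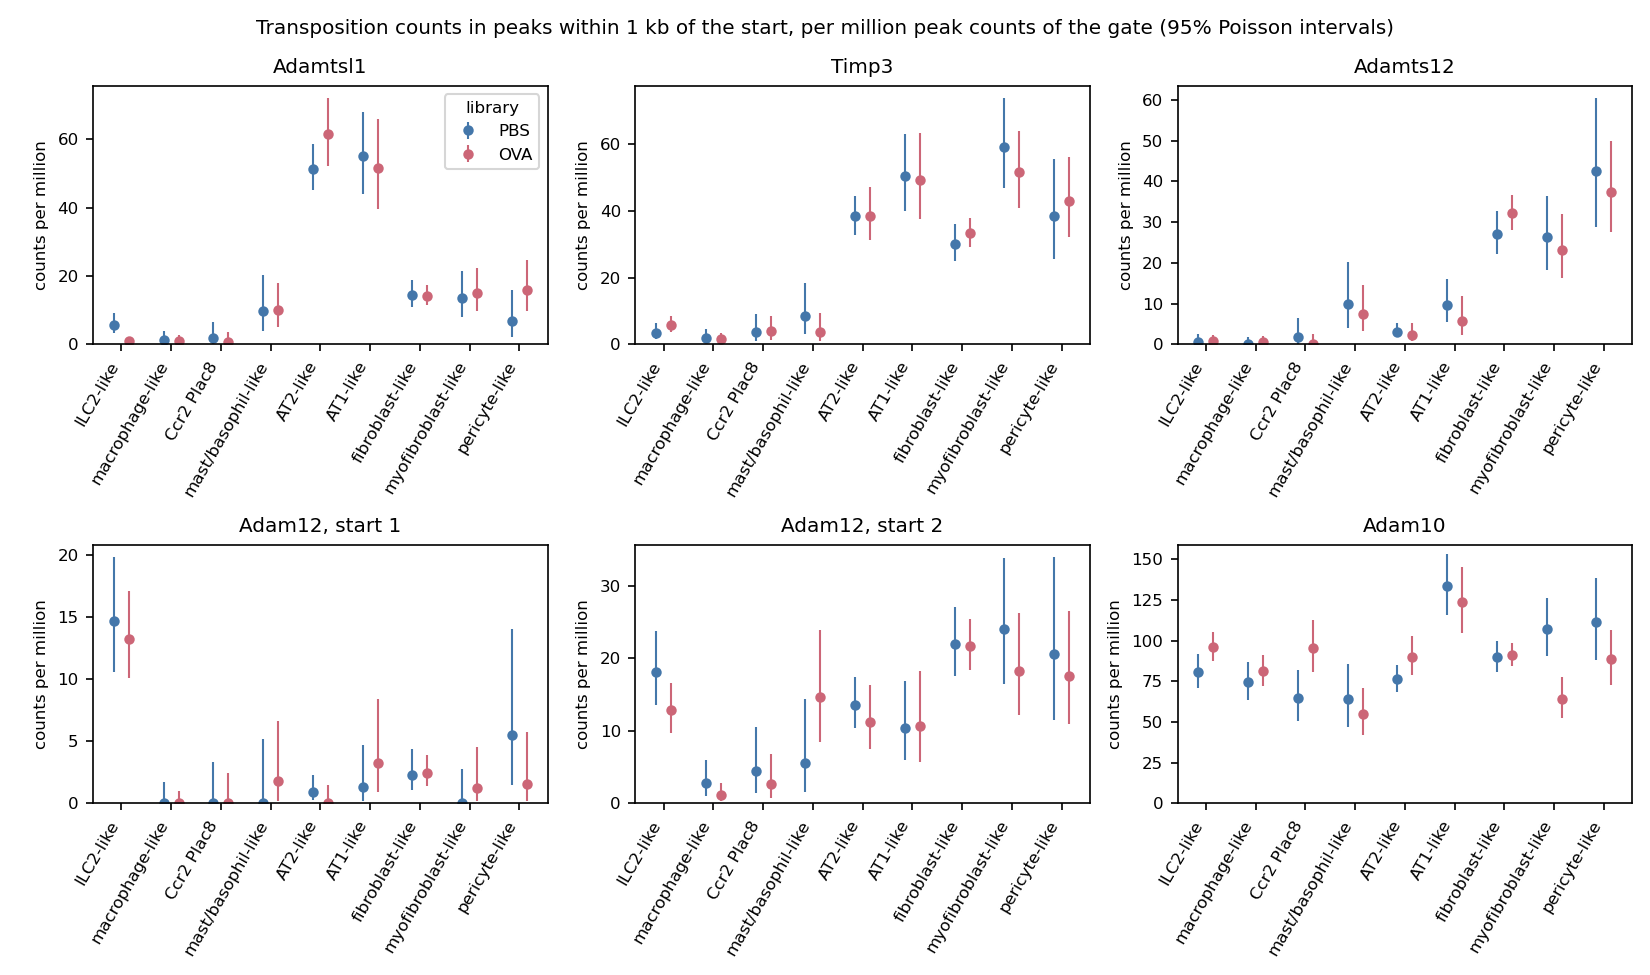
Transposition counts in peaks within 1 kb of the starts of Adamtsl1, Timp3, Adamts12, Adam12 (2 starts) and Adam10, per 1000000 peak counts of a gate, for the 9 gates in the PBS and OVA libraries, with exact 95% counting intervals. Adamts12 is most open in the mesenchymal gates, the first Adam12 start in the ILC2-like gate, and Adam10 is open in all.

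The start regions of Adam12 were not open alike. At its first annotated start (chr7, position 134232146) the ILC2-like gate had 14.7 (PBS) and 13.3 (OVA) counts per 1000000 and the fibroblast-like gate 2.30 and 2.43, a ratio of 6.38 (3.06 to 14.9) and 5.45 (3.14 to 9.97). At the second start, 7.05 kb away, the ILC2-like gate had 18.2 and 12.8 and the fibroblast-like gate 22.0 and 21.7, a ratio of 0.827 (0.575 to 1.18) and 0.590 (0.428 to 0.803). The first start was thus more open in ILC2-like nuclei in both libraries while RNA levels were close. For Adamtsl1, the first start was at 51.5 and 61.5 in the AT2-like and 55.1 and 51.7 in the AT1-like gate and at most 16.0 elsewhere. The RNA of Adamtsl1 differed over 3-fold between these epithelial gates, whereas the intervals of their start accessibility overlapped in both libraries.

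The OVA and PBS libraries were then compared gate by gate. Pairs of a member and a gate with at least 30 UMIs numbered 119, over 32 members. In 4 pairs (3.36%) the OVA level was at least 2-fold higher with an interval above 1, against 3.21% of 35490 pairs over all genes, and in 4 pairs (3.36%) it was at least 2-fold lower, against 2.24%. With all UMIs, mitochondrial included, as the denominator, these counts became 10 higher (8.40%, all genes 6.80%) and 2 lower (1.68%, all genes 0.947%). For 90 of the 119 pairs the interval included 1. By the 2-fold rule the share of higher pairs was thus close to that of all genes. The share of lower pairs rested on 4 pairs, too few to set it apart from that of all genes. Without the 2-fold limit, the interval lay above 1 in 17.65% of member pairs, against 10.9% of all pairs. Whether an interval leaves out 1 depends on the number of UMIs, and these shares were not matched for it. The same member can also count in several gates. The median log2 ratio of members was 0.23 (-0.92 to 0.64) in the ILC2-like gate (11 members, all genes 0.05). It was 0.10 (-0.38 to 0.80) in the macrophage-like gate (10 members, 0.14) and -0.14 (-0.34 to 0.38) in the AT2-like gate (15 members, 0.08). In the fibroblast-like gate it was 0.12 (-0.25 to 0.30), with 27 members and 0.01 for all genes. Each interval held both 0 and the median of all genes.

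Among the higher pairs, Adamts19 in the fibroblast-like gate had 62.9 CPM (40 UMIs) in the PBS and 127 CPM (228 UMIs) in the OVA library, a ratio of 2.02 (1.44 to 2.91). Mmp19 in the same gate had 23.6 CPM (15 UMIs) and 55.3 CPM (99 UMIs), a ratio of 2.34 (1.36 to 4.35). Mmp19 was highest in the macrophage-like gate, and the macrophage markers in the fibroblast-like gate also differed, with 277 CPM (2 of 9 markers at 0) in the PBS and 382 CPM (4 of 9 at 0) in the OVA library. In fibroblast-like nuclei without a UMI of another lineage's markers the ratio of Mmp19 was 2.26 (0.851 to 7.01) and that of Adamts19 was 1.53 (0.731 to 3.37). Adamts4, an aggrecanase, had 119 CPM (11 UMIs) and 269 CPM (64 UMIs) in the pericyte-like gate, a ratio of 2.25 (1.18 to 4.74). In nuclei without other-lineage markers it was 2.51 (0.502 to 24.3). Adam8 in the macrophage-like gate rested on 3 PBS and 28 OVA UMIs, a ratio of 3.58 (1.11 to 18.4). In nuclei without other-lineage markers it was 4.58 (0.688 to 195), from 1 and 13 UMIs. Markers of other gates of the same lineage were not removed in these restrictions. These pairs held under 6 (Adamts19, Mmp19), 3 (Adamts4) and 4 (Adam8) of 9 alternatives.

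Among the lower pairs, Adamts17 in the ILC2-like gate had 93.2 CPM (21 UMIs) in the PBS and 18.3 CPM (11 UMIs) in the OVA library, a ratio of 0.196 (0.0853 to 0.425). Its level was highest in the fibroblast-like gate, and the fibroblast markers summed to 333 CPM (2 of 9 at 0) in the PBS and 188 CPM (1 of 9 at 0) in the OVA ILC2-like gate. Without nuclei that held a UMI of another lineage's markers, 3 PBS and 3 OVA UMIs were left, a ratio of 0.405 (0.0543 to 3.03). Adamts6 in the fibroblast-like gate had 72.3 CPM (46 UMIs) and 32.4 CPM (58 UMIs), a ratio of 0.448 (0.299 to 0.674). In nuclei without other-lineage markers it was 0.218 (0.0390 to 0.824), from 11 PBS and 3 OVA UMIs. Those nuclei are part of the same gate, and markers of the other mesenchymal gates were not removed. Adamts6 was highest in the myofibroblast-like gate, whose markers in the fibroblast-like gate stood at 847 CPM (PBS) and 739 CPM (OVA). Their part in the Adamts6 ratio was not tested. Adamts8, an anti-angiogenic protease, had 29.9 CPM (19 UMIs) and 12.3 CPM (22 UMIs) in the fibroblast-like gate, a ratio of 0.411 (0.212 to 0.803). In nuclei without other-lineage markers it was 0.684 (0.190 to 2.38). Adam10 in the pericyte-like gate had 228 CPM (21 UMIs) and 113 CPM (27 UMIs), a ratio of 0.498 (0.271 to 0.926). In nuclei without other-lineage markers it was 0.786 (0.169 to 3.96). Fibroblast markers, which were not removed there, summed to 1995 CPM (PBS) and 1616 CPM (OVA) over the whole pericyte-like gate. The 4 lower pairs held under 4 (Adamts17), 6 (Adamts6), 3 (Adamts8) and 2 (Adam10) of 9 alternatives.

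**Figure D4:**
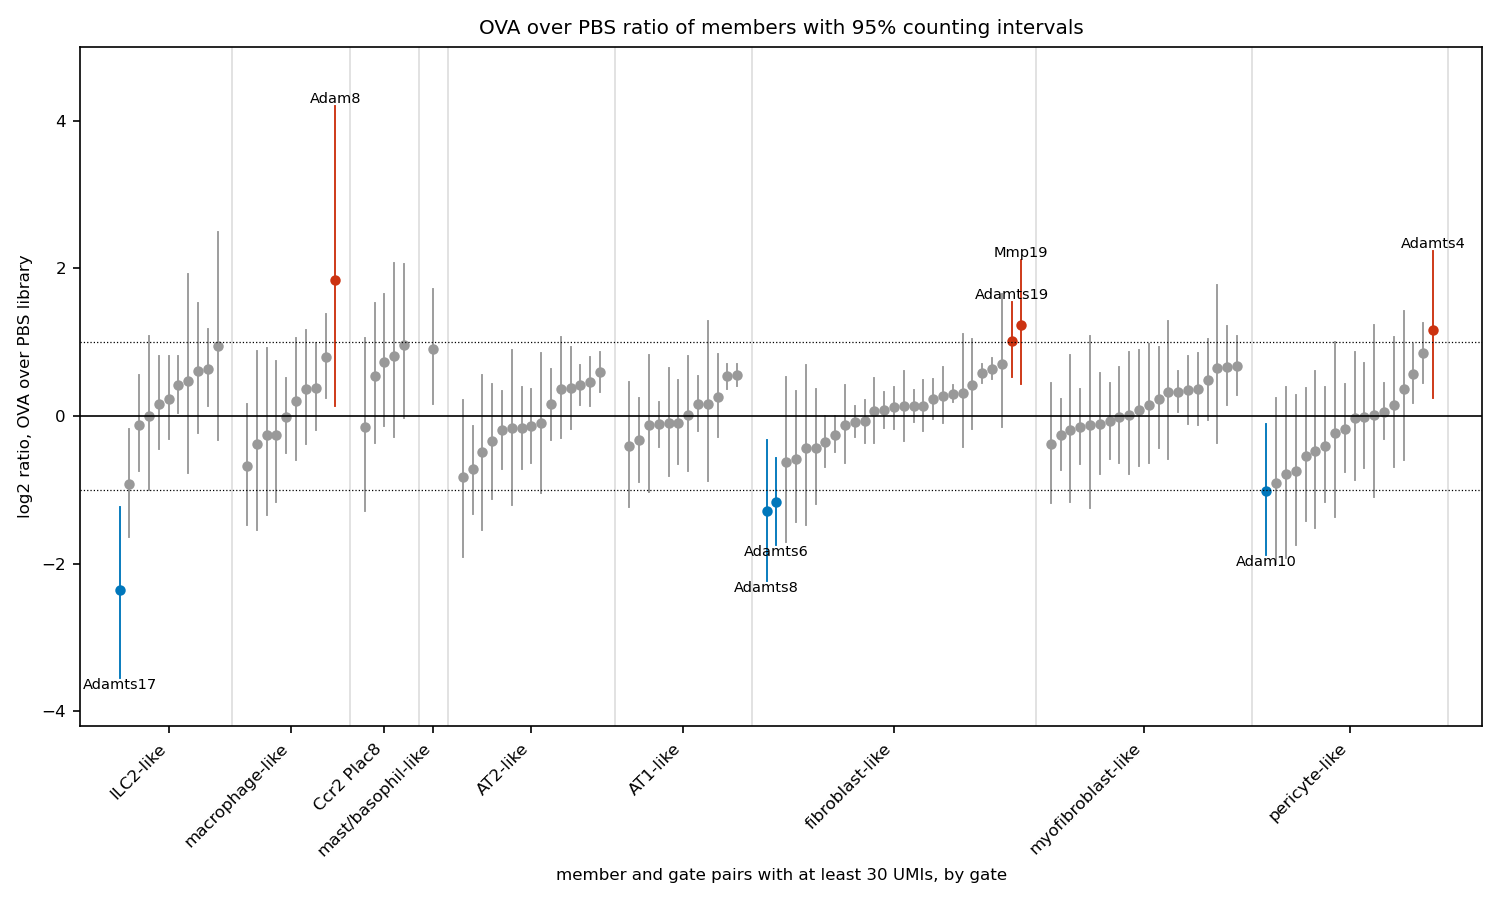
Log2 ratio of CPM, OVA over PBS library, for the 119 member and gate pairs with at least 30 UMIs, ordered within each gate, with exact 95% counting intervals; red and blue mark the pairs at least 2-fold higher and lower, and dotted lines a 2-fold ratio. Adam8 in the macrophage-like gate is the highest point and Adamts17 in the ILC2-like gate the lowest.

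Accessibility at the starts did not move by 2-fold with these levels, apart from Adam8. In the macrophage-like gate the Adam8 start had 8 PBS and 49 OVA counts, a depth-scaled ratio of 3.63 (1.71 to 8.88), but over 1 peak of 912 bases in the PBS and 2 peaks of 1747 bases in the OVA library, since peaks were called in each library separately. For Mmp19 the ratio was 1.41 (1.02 to 1.97), again over 1 peak against 2. For the other 6 pairs the interval included 1, as with Adamts17 in the ILC2-like gate (1.06, 0.831 to 1.37) and Adamts6 in the fibroblast-like gate (0.813, 0.649 to 1.02).

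Other pairs differed by less than 2-fold. With the 2-fold pairs included, the interval lay above 1 in 21 of 119 pairs (17.6%), against 10.9% of all gene and gate pairs, and below 1 in 8 (6.72%), against 6.29%. These shares were not matched for the number of UMIs. Timp3 was higher in the OVA library in the AT1-like gate (1.47, 1.33 to 1.63), the pericyte-like gate (1.48, 1.14 to 1.96) and the AT2-like gate (1.34, 1.11 to 1.61). Adamts9 was higher in 5 gates, with ratios from 1.38 in the AT2-like to 1.88 in the mast cell-like gate. Adamtsl1 stood at 1.45 (1.29 to 1.63) in the AT1-like and 1.52 (1.26 to 1.83) in the AT2-like gate. The AT2 markers in the AT1-like gate moved the other way, from 5627 CPM (PBS) down to 2868 CPM (OVA), with none of 9 at 0. In the 145 PBS and 163 OVA AT1-like nuclei without a UMI of the AT2 gating markers the ratio was 1.12 (0.959 to 1.32) for Timp3 and 1.22 (1.01 to 1.47) for Adamtsl1. In the ILC2-like gate Adam12 was at 1.34 (1.03 to 1.75) and Adamts6 at 1.56 (1.10 to 2.27), and in the macrophage-like gate Adam17 was at 1.74 (1.19 to 2.60). These values compare the 2 libraries and not the conditions.

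The list of 31 partners held genes that activate, block, mature or clear these proteases. Of the 17 with enough UMIs, 7 had a leading gate, where 15.2% of all genes did. The partners were chosen with earlier results of these data known, so these shares are not a test of enrichment. Pcsk5, a proprotein convertase, led in the myofibroblast-like gate, Plat, the tissue plasminogen activator, in the pericyte-like gate, and Pcsk6 and the procollagen C-proteinase Bmp1 in the AT2-like gate. Spock2, a matrix proteoglycan, and Tspan15, a tetraspanin that guides Adam10, led in the AT1-like gate, and Tspan5, another Adam10 tetraspanin, in the fibroblast-like gate. Of 87 partner and gate pairs 4 were at least 2-fold higher and 4 at least 2-fold lower in the OVA library (all genes 3.21% and 2.24%). Furin, which removes the propeptide of many ADAM, ADAMTS and membrane-bound MMP proteins, was at 495 CPM (17 UMIs) in the PBS and 2086 CPM (193 UMIs) in the OVA mast cell-like gate, a ratio of 4.21 (2.56 to 7.38). Furin was also at 546 and 922 CPM in the ILC2-like gate, and the ILC2 markers in the mast cell-like gate stood at 4603 CPM (PBS) and 6809 CPM (OVA), with 1 of 9 at 0 in each library. Only 12 of 53 PBS and 10 of 91 OVA nuclei of the mast cell-like gate had no UMI of the ILC2 gating markers. Furin had no UMI in them, but they were few and their depth was not examined, so this cannot place its RNA. The source of Furin RNA in this gate was not tested. Reck, a membrane-anchored inhibitor of MMPs, was lower in the AT2-like gate (0.405, 0.178 to 0.865) and the fibroblast-like gate (0.486, 0.349 to 0.680). The other pairs were Plaur in the AT1-like gate (3.70), Plat in the fibroblast-like gate (2.30) and Tspan5 in the AT1-like gate (2.02) on the higher side, and Tspan5 in the Ccr2 Plac8 gate (0.345) and Lrp1 in the ILC2-like gate (0.449) on the lower side. These pairs are given without UMI counts or intervals. Fibroblast markers stood at 309 CPM (PBS) and 174 CPM (OVA) in the Ccr2 Plac8 gate, and at 208 and 133 CPM in the AT1-like gate. Their part in the Tspan5 ratios was not tested.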

How the data were processed

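Nuclei of sorted fetal lung cells were profiled for RNA and accessible chromatin in 1 PBS and 1 OVA library. The authors deposited raw counts from Cell Ranger ARC 2.0.1 (mm10), as whole UMI counts per gene and whole transposition counts per peak, with peaks called per library. Groups came from the sample labels.

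The study's limits of at least 200 genes and no more than 60% mitochondrial UMIs per nucleus were applied. A nucleus entered a gate with at least 2 of 8 markers and a lead of 1 over any other of 20 panels. Nuclei with 2 or more markers of another lineage (284 PBS, 357 OVA) were left out, and no doublet caller was run. No gate was found for 1944 PBS and 1755 OVA nuclei. CPM was computed over nuclear-encoded UMIs. Intervals were exact Poisson for levels, conditional binomial for ratios and order-statistic for medians. A floor of 3 counts corresponded to 13.3 CPM (PBS) and 4.98 CPM (OVA) in the ILC2-like gate. Named were the 4 TIMPs, 9 textbook members, members with a leading gate or at least 2-fold apart, and the 2 members with most UMIs of each subfamily. Others named for a leading lineage or a sequence were chosen after their values were seen. The members and lists were chosen with earlier results of these data known. The lineage comparison, the assignment of ungated nuclei and the restrictions to nuclei without markers of other lineages or of 1 other panel were added after seeing the data. Scripts were tested on simulated data and run with Python 3.11.15, numpy 2.4.6, scipy 1.17.1 and pandas 2.3.3.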

Additional observations from a re-analysis of the deposited data

Results flagged for a closer look

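Members were raised in gates too small to be described, with fewer than 50 nuclei in a library. These levels are over both libraries together and above those of any described gate. Adam8 (673.6 CPM, 31 UMIs), Mmp8 (456.3 CPM, 21 UMIs) and Mmp9 (260.8 CPM, 12 UMIs) were raised in the neutrophil gate of 17 PBS and 43 OVA nuclei. Adam28 reached 142 CPM (10 UMIs) in the club gate and 105.6 CPM (18 UMIs) in the ciliated gate, where Adam22 reached 264.1 CPM (45 UMIs). Adam12 reached 795.3 CPM in the mesothelial gate, from 13 UMIs in 4 PBS and 7 OVA nuclei. Other levels were also above every described gate, but their intervals reached the highest of these. They included Adamts9 in the endothelial gate (1684 CPM, 1265 to 2197, 54 UMIs, 53 of them OVA). Adamts6 in the B cell gate (537.7 CPM, 268.4 to 962.1, 11 UMIs) and Mmp15 in the ciliated gate (46.95 CPM, 8 UMIs) were others.

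For 3 members the log2 ratio of OVA over PBS pointed in opposite directions in different gates, with intervals on opposite sides of 0. Adamts17 was at -2.35 in the ILC2-like gate, 0.30 in the fibroblast-like gate and 0.67 in the myofibroblast-like gate. Adamts1 was at -0.92 in the ILC2-like gate, 0.58 in the fibroblast-like gate and 0.33 in the myofibroblast-like gate. Adamts6 was at 0.64 in the ILC2-like gate and -1.16 in the fibroblast-like gate. These differences between gates were not tested, since each group had 1 library. The fibroblast markers in the ILC2-like gate stood at 333 CPM (PBS) and 188 CPM (OVA), and their part in the ILC2-like values was not tested.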

How the results depend on the processing

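No paired analysis was possible because PBS and OVA were 1 library each. For the same reason no library could be left out. Of 140 values under alternative settings, 20 left the interval of the reported ratio or median or, for counts, changed by over 1.5 times. The other 120 did not, although some moved far within wide intervals: the log2 ratio of Adam8 in the macrophage-like gate ranged from 0.32 to 2.17. With at least 3 markers and a lead of 2, there were 7 members with a leading gate (43.8%, all genes 25.9%), 12 with a leading lineage (60%, all genes 32%), 2 higher and 2 lower pairs, and 4 members most accessible in their leading gate. With the panel of most marker UMIs, 2 pairs were lower, and the log2 ratios of Adamts17 in the ILC2-like and Adamts6 in the fibroblast-like gate moved to -1.12 and -0.36. With at most 20% mitochondrial UMIs only the fibroblast-like gate was left, with 2 higher and 2 lower pairs of 23 (8.70% each, all genes 2.75% and 2.31%), and the leading gate, lineage and accessibility could not be computed. With the study's count filter, 2 members had a leading gate (11.8%, all genes 15.2%), 0 of them most accessible there, and 2 pairs were higher. With all UMIs as denominator 10 pairs were higher and 2 lower. With at least 100 UMIs, 2 were higher and 1 lower. Within 5 kb of the start, 2 members were most accessible in their leading gate. With ungated nuclei assigned, 1 pair was higher and 2 members were most accessible in their leading gate. The cause of these moves was not tested. A call counted as not held also where a setting left it no gate or too few UMIs to be judged. The median log2 ratios of members ranged from -0.19 to 0.47 (ILC2-like), -0.05 to 0.38 (macrophage-like), -0.22 to 0.18 (AT2-like) and 0.05 to 0.29 (fibroblast-like) over the alternatives, so the sign changed for all but the fibroblast-like gate. Shallow gates limit low members, since 3 counts equal 87.4 CPM in the PBS mast cell-like gate.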
